A study of Mus musculus with 9 samples.

Results

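The ATF and C/EBP stress transcription factors are the DNA-binding proteins, and 2 of their regulators, through which a cell changes its transcription when amino acids run short, proteins misfold or oxidants accumulate. Here they were the 10 genes *Atf4*, *Atf3*, *Atf5*, *Cebpa*, *Cebpb*, *Cebpd*, *Cebpg*, *Ddit3*, *Trib3* and *Nupr1*, chosen by symbol, and they matched 11 of the 55416 gene identifiers counted, since 2 identifiers carry the symbol *Ddit3*. The question was how the mRNA of each differs in the embryonic mouse lens when *Atf4* itself is deleted.

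In the integrated stress response, kinases phosphorylate the translation initiation factor eIF2α, most translation slows, and translation of ATF4 rises. ATF4 is a basic leucine zipper (bZIP) protein that binds DNA as a dimer, often with a C/EBP partner such as C/EBPγ, at a composite element made from a C/EBP and an ATF half-site. *Ddit3*, which encodes CHOP, and *Atf3*, *Atf5*, *Trib3* and *Nupr1* are known ATF4 targets in many stressed cells. TRIB3 is a pseudokinase that inhibits ATF4 and CHOP, and NUPR1 is a small chromatin-associated protein induced by stress. The lens is an avascular tissue with an epithelium in front and elongated fiber cells behind, and it grows without a blood supply of its own.

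Lenses were taken from E16.5 mouse embryos of 2 genotypes. The 4 *Atf4* null embryos were homozygous for *Atf4*tm1Tow, a germline allele in which the last exons of the gene, with the coding sequence, are replaced with a neomycin resistance cassette, carried in every tissue of the embryo and not in the lens alone. The 5 wildtype embryos were littermates from matings of heterozygotes on a mixed C57Bl/6/129 background. No agent was applied. Each library held the RNA of a single pair of lenses from 1 embryo, and embryos of both sexes were used.

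Reads assigned to genes numbered 8409779 to 8906996 per wildtype library and 7440807 to 8696699 per *Atf4* null library. The lens label fitted its markers: the fiber list summed to between 50703 and 92350 counts per 1000000 (CPM) in wildtype and between 37951 and 89245 CPM in *Atf4* null, though *Lim2* was listed at 0 throughout. Wildtype replicate 5 stood apart, with 9319 CPM of skeletal muscle markers against 15.9 to 35.7 CPM in the other wildtype libraries and 14223 CPM of mesenchyme markers against 40.8 to 92.3 CPM. In *Atf4* null these sums ran from 27.7 to 118 CPM for muscle and from 208 to 542 CPM for mesenchyme. Vascular endothelium markers ran from 322 to 595 CPM in wildtype and from 170.2 to 377 CPM in *Atf4* null, and erythroid markers from 231 to 740.3 CPM and from 182 to 254 CPM. Lens epithelium markers summed to 823 to 1114 CPM in wildtype and 433 to 611 CPM in *Atf4* null, and *Foxe3*, *Cdh1* and *Pdgfra* among the 4 were lower. Neural retina markers ran from 116 to 188 CPM in wildtype and from 215 to 539 CPM in *Atf4* null. The macrophage list, whose cells express several C/EBP genes, summed to 105 to 131 CPM in wildtype and 113 to 142 CPM in *Atf4* null. Their part in the results below was not tested. In whole lenses, fewer cells of a type and less RNA per cell cannot be told apart.

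*Atf4* mRNA was nearly lost, *Nupr1* mRNA fell to 26.2% of its wildtype level, *Ddit3* mRNA rose about 9-fold and *Cebpg* mRNA about 2-fold. *Atf3* was higher in each *Atf4* null library than in any wildtype library, but at an edgeR adjusted p of 0.0867. The other C/EBP genes and *Atf5* did not pass the test, and *Trib3* had too few counts to be tested. A gene is called here when the Benjamini-Hochberg adjusted p of edgeR's quasi-likelihood test, over all 14903 genes tested, is below 0.05. Of the 10 genes, 9 had enough counts to be tested and 4 were called, 2 higher and 2 lower in *Atf4* null. Among the lower calls is *Atf4*, which was deleted by design, and without it 3 of 8 were called. Of these 8, *Atf3* and *Cebpa* had enough counts to be tested only through the *Atf4* null libraries. Without these 2 as well, 3 of 6 were called, beside 867 of 14308 over all genes that did not need those libraries. Over all genes tested, 5.9% were called, 2.23% as higher and 3.67% as lower. The CPM of the 2 genotypes did not overlap for 5 members, *Atf4*, *Atf3*, *Cebpg*, *Ddit3* and *Nupr1*, and did not overlap for 10.2% of all genes tested. Of the 5, *Atf4* was deleted by design and *Atf3* was tested only through the *Atf4* null libraries, which leaves *Cebpg*, *Ddit3* and *Nupr1*.

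**Figure D1:**
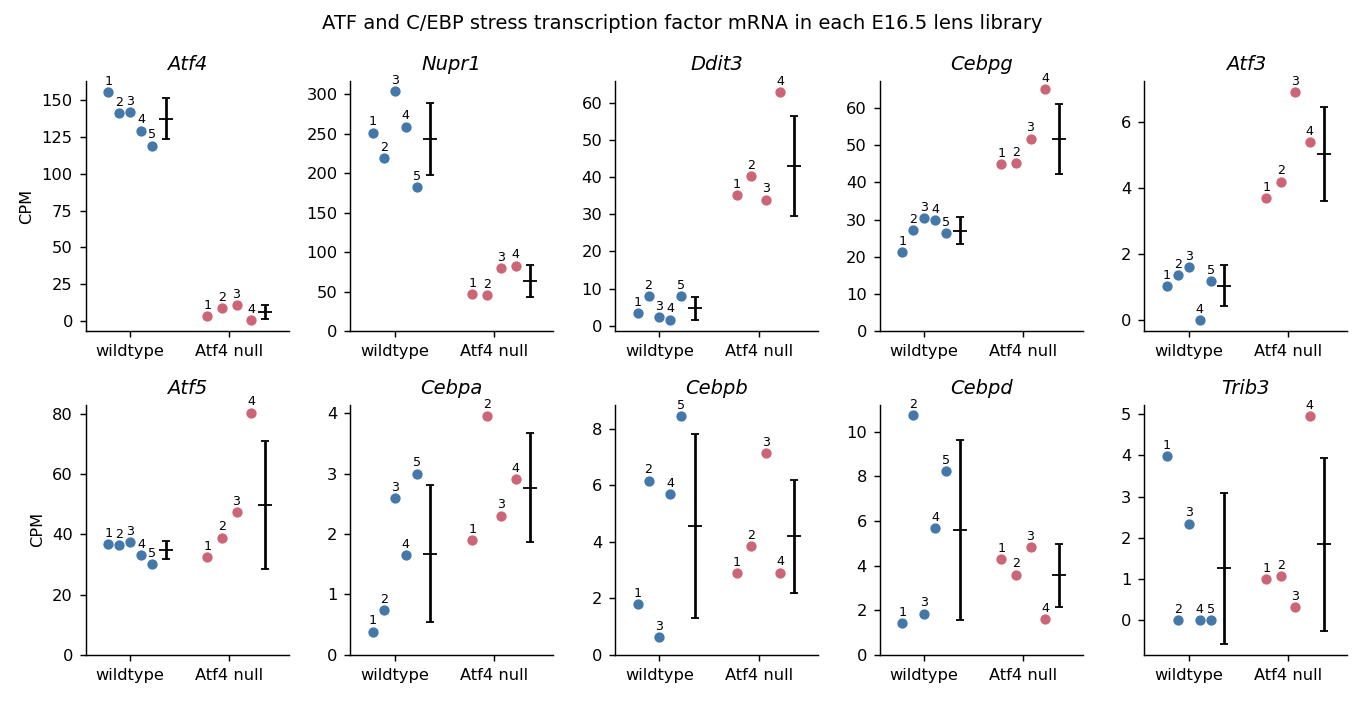
CPM of each gene (vertical axes, linear, a separate scale per gene) in the 5 wildtype (blue) and 4 *Atf4* null (red) libraries, numbered by replicate, with the mean and SD in black. *Atf4*, *Nupr1*, *Ddit3*, *Cebpg* and *Atf3* separate the genotypes without overlap, and the other 5 do not.

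*Atf4* (ENSMUSG00000042406, GRCm39 chr15:80139372-80141745, plus strand) is the deleted gene and checks the labels. Its level was 155, 141, 142, 129 and 119 CPM in wildtype replicates 1 to 5, and 3.29, 8.64, 10.6 and 0.582 CPM in *Atf4* null replicates 1 to 4. Each *Atf4* null library was far below each wildtype library, so the labels and the gene's counts went together in all 9 libraries. The mean was 138 ± 13.8 CPM (SD, n = 5) in wildtype lens against 5.79 ± 4.65 CPM (SD, n = 4) in *Atf4* null, a log2 fold change of −4.55 (SE 0.47, edgeR adjusted p = 9.75e-05). Between 4 and 97 reads per *Atf4* null library were still assigned to the gene, which left 4.21% of the wildtype mean, and the residual level differed 18.3-fold between the highest and the lowest of the 4. The counts cover the gene as a whole and do not say which exons these reads lie on. The paper reports that they came only from the noncoding exons and the intron between those.

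*Ddit3* (ENSMUSG00000025408, GRCm39 chr10:127124268-127132163, plus strand), whose product CHOP dimerises with other C/EBP proteins and promotes cell death in lasting stress, had the largest rise among the members called. Its level was 3.34, 8.02, 2.35, 1.65 and 7.92 CPM in wildtype replicates 1 to 5 and 35.3, 40.3, 34.0 and 62.9 CPM in *Atf4* null replicates 1 to 4. The genotypes were well apart, although wildtype replicates 2 and 5 were above the other 3 wildtype libraries and *Atf4* null replicate 4 was above the other 3 of its genotype. The mean was 4.65 ± 3.09 CPM (SD, n = 5) in wildtype lens against 43.1 ± 13.5 CPM (SD, n = 4) in *Atf4* null. The log2 fold change was 3.20 (SE 0.42, edgeR adjusted p = 0.000581), a 9.18-fold rise with a 95% interval from 4.91 to 17.2. The difference of mean log2 CPM gave p = 0.0079 in a two-sided exact permutation test over all 126 ways to assign the genotypes to the libraries, the smallest p this design allows.

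The 148 bases upstream of the first exon of *Ddit3* (GRCm39 chr10:127126412-127126559, plus strand, positions −250 to −103 from the RefSeq start site) are shown because they hold the only AP-1 element found in the members' promoter windows. The capitals mark that element, to which JUN and FOS dimers are known to bind, and which 7.81% of all promoter windows hold.
Ddit3: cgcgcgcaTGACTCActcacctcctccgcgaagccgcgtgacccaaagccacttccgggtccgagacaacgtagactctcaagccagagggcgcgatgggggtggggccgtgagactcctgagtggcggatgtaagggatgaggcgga

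Other genes share the *Ddit3* locus. The second identifier with this symbol (ENSMUSG00000116429, chr10:127126698-127129622) is the upstream open reading frame of the *Ddit3* mRNA, and it had 0 counts in all 9 libraries. Its 105 bases are 10.7% of the canonical *Ddit3* transcript, and in HTSeq's default mode a read that overlaps both is not counted for either. On the opposite strand, *Mars1*, the methionyl-tRNA synthetase and a known ATF4 target, overlaps 7.56% of the canonical *Ddit3* exons. *Mars1* fell by 1.15 on the log2 scale (SE 0.15, edgeR adjusted p = 0.000572), from 83.1 ± 14.8 CPM (SD, n = 5) to 37.5 ± 2.45 CPM (SD, n = 4), against the direction of *Ddit3*. The antisense lncRNA *Gm4189*, over 10.6% of those exons, had 0, 0, 2 and 3 counts in *Atf4* null replicates 1 to 4 and 9, 8, 8, 7 and 10 counts in wildtype replicates 1 to 5. The neighbour *Mbd6* shares no canonical exon with *Ddit3*, and its log2 fold change was 0.14 (edgeR adjusted p = 0.596).

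*Cebpg* (ENSMUSG00000056216, GRCm39 chr7:34745847-34756011, minus strand) encodes C/EBPγ, a C/EBP protein without a strong activation domain of its own that pairs with ATF4. Its level was 21.3, 27.2, 30.5, 29.9 and 26.3 CPM in wildtype replicates 1 to 5 and 44.9, 45.1, 51.8 and 65.1 CPM in *Atf4* null replicates 1 to 4. No *Atf4* null library was as low as any wildtype library, and the spread within each genotype was small. The mean rose from 27.04 ± 3.65 CPM (SD, n = 5) to 51.7 ± 9.48 CPM (SD, n = 4), a log2 fold change of 0.93 (SE 0.17, edgeR adjusted p = 0.00533), or 1.91-fold. The exact permutation test gave p = 0.0079, two-sided.

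*Atf3* (ENSMUSG00000026628, GRCm39 chr1:190902493-190950241, minus strand) encodes a small bZIP factor that is induced early in many kinds of stress and often represses its targets. It had 8, 11, 13, 0 and 11 counts in wildtype replicates 1 to 5 and 37, 35, 63 and 37 counts in *Atf4* null replicates 1 to 4. In CPM the wildtype libraries lay between 0 and 1.61 and the *Atf4* null libraries between 3.69 and 6.91, so the genotypes did not overlap. *Atf3* and *Cebpa* each reached the filter's minimum of 1.17 CPM, which 4 libraries must reach, in 3 wildtype libraries and in all 4 *Atf4* null libraries, so they were tested only through the latter. The *Atf3* means were 1.03 ± 0.617 CPM (SD, n = 5) and 5.05 ± 1.43 CPM (SD, n = 4), a log2 fold change of 2.27 with a 95% interval from 0.73 to 3.81. The call depended on the test: the adjusted p was 0.0867 in edgeR's quasi-likelihood test, 0.00856 in DESeq2 and 0.0107 in edgeR's exactTest, and it lay between 0.00856 and 0.223 over 14 alternatives. Since *Atf3* was tested only through the libraries where it was high, these adjusted p are not taken as support for a rise. The exact permutation test gave p = 0.0079, two-sided.

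The 243 bases before the first exon of *Atf3* (GRCm39 chr1:190915538-190915780, minus strand, positions −250 to −8) are shown because they hold a match to the C/EBP-ATF composite element, in capitals, which lies on the strand opposite to the gene.
Atf3: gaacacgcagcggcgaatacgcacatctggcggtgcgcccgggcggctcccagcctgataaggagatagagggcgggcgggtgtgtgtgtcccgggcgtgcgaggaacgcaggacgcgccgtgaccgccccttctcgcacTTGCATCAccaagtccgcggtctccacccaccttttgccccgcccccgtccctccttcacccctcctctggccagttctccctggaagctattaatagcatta

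*Atf5* (ENSMUSG00000038539, GRCm39 chr7:44461680-44466082, minus strand), a bZIP factor that like ATF4 is under translational control and is linked to the mitochondrial stress response, showed a difference that depended largely on 1 library. Its level was 36.9, 36.5, 37.6, 33.0 and 30.2 CPM in wildtype replicates 1 to 5 and 32.6, 39.0, 47.4 and 80.5 CPM in *Atf4* null replicates 1 to 4. *Atf4* null replicate 1 lay within the wildtype range, replicates 2 and 3 above it and replicate 4 far above it. The log2 fold change was 0.52 with a 95% interval from 0.02 to 1.01 (edgeR adjusted p = 0.23, exact permutation p = 0.0952), and 0.18 without *Atf4* null replicate 4. *Nup62* and *Il4i1*, on the opposite strand, each overlap 4.52% of the canonical *Atf5* exons, and their log2 fold changes were 0.03 (edgeR adjusted p = 0.952) and 0.77 (edgeR adjusted p = 0.541).

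*Nupr1* (ENSMUSG00000030717, GRCm39 chr7:126222414-126230033, minus strand) had the highest CPM of the members in wildtype lens and fell. Its level was 252, 220, 304, 259 and 183 CPM in wildtype replicates 1 to 5 and 46.8, 46.1, 79.6 and 83.0 CPM in *Atf4* null replicates 1 to 4. The highest *Atf4* null library was below the lowest wildtype library, which was wildtype replicate 5. The mean was 244 ± 45.3 CPM (SD, n = 5) in wildtype lens against 63.9 ± 20.2 CPM (SD, n = 4) in *Atf4* null. The log2 fold change was −1.93 (SE 0.21, edgeR adjusted p = 0.000155), 3.82-fold lower, and the exact permutation test gave p = 0.0079, two-sided.

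*Trib3* (ENSMUSG00000032715, GRCm39 chr2:152179337-152191958, minus strand) had few counts in both genotypes. It had 31, 0, 19, 0 and 0 counts in wildtype replicates 1 to 5 and 10, 9, 3 and 34 counts in *Atf4* null replicates 1 to 4. Its reads came from 2 of 5 wildtype and 4 of 4 *Atf4* null libraries, and the groups overlapped (exact permutation p = 0.357, two-sided). A count of 0 allows up to 3 counts, between 0.321 and 0.38 CPM in the 3 wildtype libraries without reads, and this limit covers counting error only. With no filter on low counts the log2 fold change was 0.52 (SE 1.17, edgeR adjusted p = 0.858).

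*Nupr1* and *Trib3* also hold the composite element in their RefSeq promoter windows. The 30 bases around each match are shown, with the element in capitals: *Nupr1* at chr7:126224734-126224763 (minus strand, positions −121 to −92) and *Trib3* at chr2:152185948-152185977 (minus strand, positions 4 to 33), both GRCm39 and both within an exon of the canonical transcript.
Nupr1: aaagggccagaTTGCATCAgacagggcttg
Trib3: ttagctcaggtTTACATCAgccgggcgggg

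A window of 250 bases before to 50 bases after the start site was matched for 9 of the 10 members, 10 windows in all because *Atf5* has 2 start sites. The composite element was searched as TGATGNAA and its reverse complement TTNCATCA on both strands. It was found in 3 of the 10 windows, those of *Atf3*, *Trib3* and *Nupr1*, and in 3.97% of the 32851 windows of the RefSeq table. Its match was at position −110 in both *Atf3* and *Nupr1*, whose log2 fold changes were 2.27 and −1.93. The AP-1 element TGANTCA was found in 1 member window, that of *Ddit3* at position −242, and in 7.81% of all windows. Neither the C/EBP palindrome TTGCGCAA, in 0.183% of all windows, nor the CRE TGACGTCA, in 1.79%, was found in any member window. No member window held more than 1 of the 4 elements, and the 2 members called as higher, *Cebpg* and *Ddit3*, held no composite element in these windows. These are matches of letters and not measured binding.

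**Figure D2:**
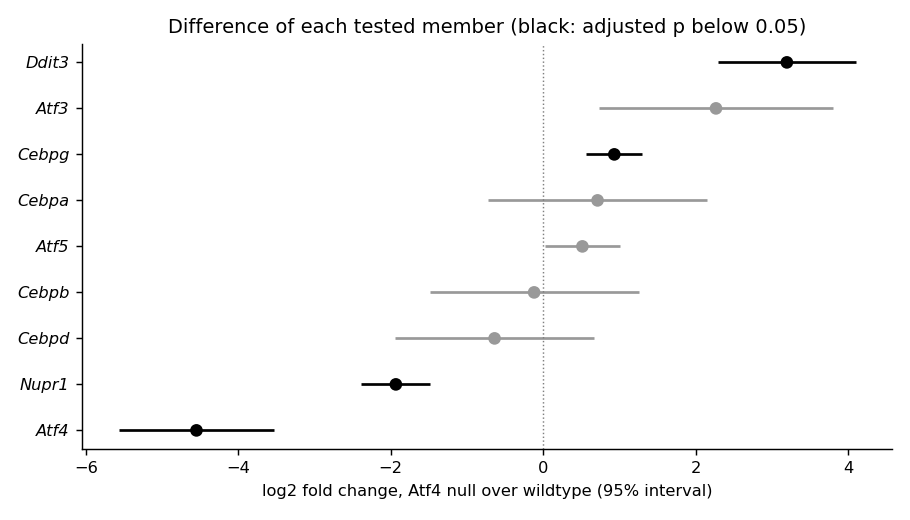
Log2 fold change of *Atf4* null over wildtype (horizontal axis) for the 9 members tested, with 95% intervals from edgeR. The 4 members in black, *Ddit3*, *Cebpg*, *Nupr1* and *Atf4*, have an adjusted p below 0.05, and the intervals of *Cebpa*, *Cebpb* and *Cebpd* span 0.

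The other C/EBP genes had few reads and wide intervals. *Cebpa* (ENSMUSG00000034957, GRCm39 chr7:34818718-34821353), which drives differentiation of myeloid cells, liver and fat, had 0.385, 0.741, 2.59, 1.65 and 3.00 CPM in wildtype replicates 1 to 5 and 1.89, 3.96, 2.30 and 2.91 CPM in *Atf4* null replicates 1 to 4. These overlap, and the log2 fold change of 0.71 had a 95% interval from −0.73 to 2.15 (edgeR adjusted p = 0.634). *Cebpb* (ENSMUSG00000056501, GRCm39 chr2:167530835-167532338), a factor of inflammation and stress, had 1.80, 6.17, 0.618, 5.70 and 8.46 CPM in wildtype and 2.89, 3.84, 7.13 and 2.91 CPM in *Atf4* null. Its wildtype values differed 13.7-fold among themselves, and its log2 fold change of −0.12 (95% interval −1.49 to 1.25, edgeR adjusted p = 0.950) changed sign in 5 of 14 alternatives. *Cebpd* (ENSMUSG00000071637, GRCm39 chr16:15705150-15708895), an acute-phase factor, had 1.41, 10.7, 1.85, 5.70 and 8.25 CPM in wildtype and 4.29, 3.60, 4.83 and 1.602 CPM in *Atf4* null. The same 3 wildtype libraries, replicates 2, 4 and 5, were the high ones for *Cebpb* and for *Cebpd*. The log2 fold change of *Cebpd* was −0.64 with a 95% interval from −1.94 to 0.67 (edgeR adjusted p = 0.641). *Spidr*, on the opposite strand, overlaps 15% of the *Cebpd* exon (log2 fold change 0.26, edgeR adjusted p = 0.508).

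To compare genes with each other, CPM were divided by the length of the canonical transcript, which gives CPM per kilobase (FPKM). In wildtype lens *Nupr1* led at 294 ± 54.7 FPKM, followed by *Atf4* at 79.0 ± 7.90 FPKM and *Atf5* at 19.2 ± 1.72 FPKM (SD, n = 5), and on this scale these 3 were separated from each other and from the next gene in the order without overlap. Below them stood *Cebpg* at 5.73 FPKM, *Ddit3* at 4.75, *Cebpb* at 3.02, *Cebpd* at 1.49, *Cebpa* at 0.637, *Trib3* at 0.605 and *Atf3* at 0.521 FPKM, where each gene overlapped the next. In *Atf4* null lens the order was *Nupr1* at 77.0 FPKM, *Ddit3* at 44.1 and *Atf5* at 27.5 FPKM, which overlapped, then *Cebpg* at 10.9 FPKM without overlap on either side. *Atf4* at 3.32 FPKM, *Cebpb* at 2.79 and *Atf3* at 2.54 FPKM followed, overlapping, and last came *Cebpa*, *Cebpd* and *Trib3*, between 0.879 and 1.05 FPKM. The order depends on the length used. With the summed length of all annotated exons, the mean of *Nupr1* was 63.6 FPKM in wildtype and that of *Ddit3* was 0.834 FPKM in wildtype and 7.73 FPKM in *Atf4* null, and *Atf5* rather than *Nupr1* led in *Atf4* null. On that scale *Nupr1* (47.7 to 79.3 FPKM) and *Atf4* (50.2 to 65.5 FPKM) overlapped in wildtype, and *Nupr1* was below *Atf4* in wildtype replicates 2 and 5.

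The makeup of the group differed between the genotypes even without *Atf4* itself. The summed level of the 9 other members was 336, 307, 400.1, 345 and 260.5 FPKM in wildtype replicates 1 to 5 and 126, 135, 178 and 231 FPKM in *Atf4* null replicates 1 to 4. With the summed exon length the sums were 77.3 to 106 FPKM in wildtype and 47.2 to 89.0 FPKM in *Atf4* null, and the genotypes overlapped, since *Atf4* null replicate 4 was above wildtype replicates 2 and 5. *Nupr1* made up 84.7% to 91.7% of this sum in wildtype and 41.0% to 53.9% in *Atf4* null. The share of *Ddit3* was 0.487% to 3.11% in wildtype and 19.5% to 30.4% in *Atf4* null. *Atf5* made up 5.17% to 6.56% in wildtype and 14.2% to 19.2% in *Atf4* null. *Cebpg* made up 1.34% to 2.14% in wildtype and 5.97% to 7.54% in *Atf4* null. The shares depend on the length used: with the summed exon length, *Nupr1* made up 61.8% to 75.0% in wildtype and 22.9% to 30.6% in *Atf4* null, and *Ddit3* 0.312% to 1.84% and 8.97% to 13.8%. On that scale *Atf5* made up 16.2% to 19.2% in wildtype and 32.1% to 42.0% in *Atf4* null, and *Cebpg* 4.18% to 6.05% and 13.0% to 16.9%. For these 4 genes the genotypes did not overlap on either scale. These shares are descriptions with no test, and each share also depends on the level of *Nupr1*, the largest part of the sum.

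**Figure D3:**
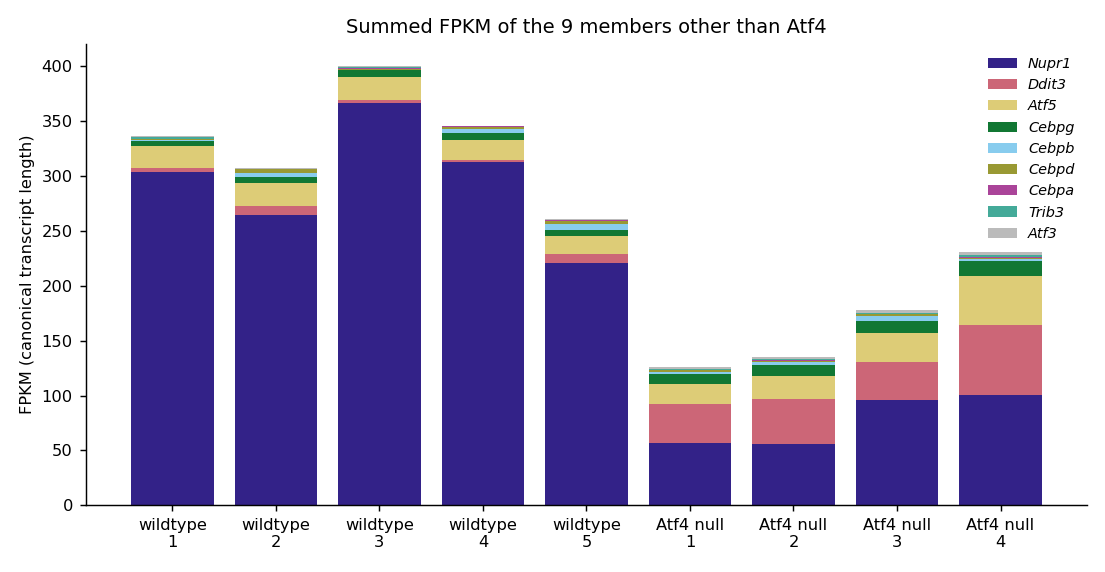
Summed FPKM (vertical axis, canonical transcript length) of the 9 members other than *Atf4* in each library, split by gene. *Nupr1* fills most of each wildtype bar, and *Ddit3* takes between 19.5% and 30.4% of each *Atf4* null bar.

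Among the 45 other bZIP genes on a list of the family, 34 were tested, with a median log2 fold change of 0.17 beside a median of 0.00072 over all genes tested. Without genes that needed the *Atf4* null libraries to be tested, these medians were 0.11 and −0.015. The bZIP median was 0.076 without *Atf4* null replicate 3 and 0.29 without wildtype replicate 5. Of the 34 bZIP genes, 3 AP-1 genes rose: *Junb* (log2 fold change 1.30, edgeR adjusted p = 0.0175), *Jun* (0.67, adjusted p = 0.0209) and *Jund* (0.42, adjusted p = 0.0459). *Jun* was at 114, 103.7, 92.02, 100.5 and 118 CPM in wildtype replicates 1 to 5 and at 134, 168, 142 and 230.5 CPM in *Atf4* null replicates 1 to 4, without overlap. *Hlf*, a PAR-domain bZIP gene with circadian expression in several tissues, fell by 2.06 on the log2 scale (edgeR adjusted p = 0.00362), from 15.9 ± 3.98 CPM (SD, n = 5) to 3.78 ± 1.69 CPM (SD, n = 4). The number of these genes called was 4 here and 7 with DESeq2, and it was 1, lower in *Atf4* null, without *Atf4* null replicate 2. It was 2 without wildtype replicate 2, 3 or 4, and 7 without *Atf4* null replicate 1. The paralogs of TRIB3, *Trib1* (log2 fold change 0.05) and *Trib2* (−0.13), were not called by edgeR or DESeq2, and neither had an unadjusted p below 0.05. *Nupr2*, the paralog of *Nupr1*, had too few reads to be tested, at 0.569 ± 0.902 CPM (SD, n = 5) in wildtype lens against 0.305 ± 0.363 CPM (SD, n = 4) in *Atf4* null.

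Of 38 known ATF4 target genes outside the members, 35 were tested, with a median log2 fold change of −0.61. By edgeR 14 were lower and 0 were higher, with 19 lower and 1 higher at an unadjusted p below 0.05, and DESeq2 called 17 lower and 1 higher. Without *Atf4* null replicate 2, edgeR called 9 as lower. The 5 lowest among those called were *Pycr1* (−2.10, proline synthesis), *Slc7a11* (−1.78, the cystine transporter), *Phgdh* (−1.68, serine synthesis), *Mthfd2* (−1.51, mitochondrial folate metabolism) and *Asns* (−1.30, asparagine synthetase). *Slc7a11* was at 79.6, 92.2, 88.6, 87.97 and 53.0 CPM in wildtype replicates 1 to 5 and at 18.5, 27.1, 31.0 and 16.7 CPM in *Atf4* null replicates 1 to 4. *Nupr1* was lower like these genes, while *Ddit3* and *Cebpg* were higher. *Gdf15*, named after its values were seen, was the gene higher in DESeq2, at 0.371 ± 0.552 CPM (SD, n = 5) in wildtype lens against 3.60 ± 2.60 CPM (SD, n = 4) in *Atf4* null (edgeR adjusted p = 0.110). Its wildtype replicates 1 to 5 were at 0, 0.617, 1.24, 0 and 0 CPM. It was thus tested only through the *Atf4* null libraries, and its call is not taken as support for a rise. Without the 2 listed genes that needed those libraries to be tested, edgeR called 14 of 33 as lower and 0 as higher, with a median of −0.61.

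Of 7 known CHOP target genes, 3 rose, and the median log2 fold change was 1.01. They were *Bbc3*, a BH3-only gene of cell death (log2 fold change 1.80, edgeR adjusted p = 0.00687), *Sqstm1*, the autophagy receptor p62 (1.54, adjusted p = 0.00157), and *Tnfrsf10b*, a death receptor (1.44, adjusted p = 0.00314). *Bbc3* is also known as a p53 target. *Sqstm1* was at 107, 106, 93.5, 89.4 and 85.7 CPM in wildtype replicates 1 to 5 and at 159, 252, 245 and 465 CPM in *Atf4* null replicates 1 to 4. In that genotype replicate 4 was also the highest for *Ddit3*, *Atf5* and *Cebpg*, and for *Nupr1*, which fell. By edgeR at an unadjusted p below 0.05, 5 of the 7 were higher and 1 was lower. The lower gene, *Ero1a*, an oxidase of the endoplasmic reticulum named after its values were seen, had a log2 fold change of −0.55 (edgeR adjusted p = 0.115), and its CPM did not overlap between the genotypes. *Bcl2l11*, also named after its values were seen, had a log2 fold change of −0.25 (edgeR adjusted p = 0.561). *Ppp1r15a*, which encodes the eIF2α phosphatase cofactor GADD34, had a log2 fold change of 1.01 (edgeR adjusted p = 0.0831).

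The genes upstream of ATF4 and those of the other arms of the unfolded protein response showed no called difference. None of 16 eIF2 kinases and regulators was called by edgeR or DESeq2, with 1 higher and 1 lower at an unadjusted p below 0.05, and their median log2 fold change was 0.06. Of 18 target genes of the ATF6 and IRE1 arms, 0 were called by edgeR and 0 by DESeq2, with 1 lower at an unadjusted p below 0.05. *Hspa5*, the ER chaperone BiP, was at 343 ± 35.5 CPM (SD, n = 5) in wildtype lens against 389 ± 37.1 CPM (SD, n = 4) in *Atf4* null, a log2 fold change of 0.18 with a 95% interval from −0.07 to 0.43.

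Immediate early genes, which are transcribed soon after many stimuli, rose in 8 of the 17 tested of 20 listed, with a median log2 fold change of 0.76. Of these, *Egr3* passed the filter on low counts only through the *Atf4* null libraries. It had 2, 0, 0, 0 and 3 counts in wildtype replicates 1 to 5 and 13, 56, 11 and 13 in *Atf4* null replicates 1 to 4, so no fold is given for it. Without the 2 listed genes that needed the *Atf4* null libraries to pass, 7 of 15 rose and the median was 0.67. Among those 7, *Egr1* (1.53), *Junb* (1.30), *Zfp36* (1.25) and *Rhob* (1.07) had the largest log2 fold changes, and *Ier2*, *Btg2* and *Jun* were the others. *Atf3* belongs to the same kind of early response. *Egr1* was at 10.53, 11.97, 10.4, 13.5 and 20.03 CPM in wildtype replicates 1 to 5 and at 21.6, 48.0, 51.1 and 33.0 CPM in *Atf4* null replicates 1 to 4. The number called ran from 2 to 9 when single libraries were left out, with 2 without *Atf4* null replicate 2, 3 without wildtype replicate 2 or 3, 4 without wildtype replicate 4 and 5 without *Atf4* null replicate 3. Of 9 acute-phase genes known to be driven by C/EBPβ and C/EBPδ, 2 had enough reads to be tested, neither had an unadjusted p below 0.05 in edgeR and neither was called by DESeq2, and *Saa3*, *Il6* and *Cxcl1* had 0 counts in all 9 libraries.

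**Figure D4:**
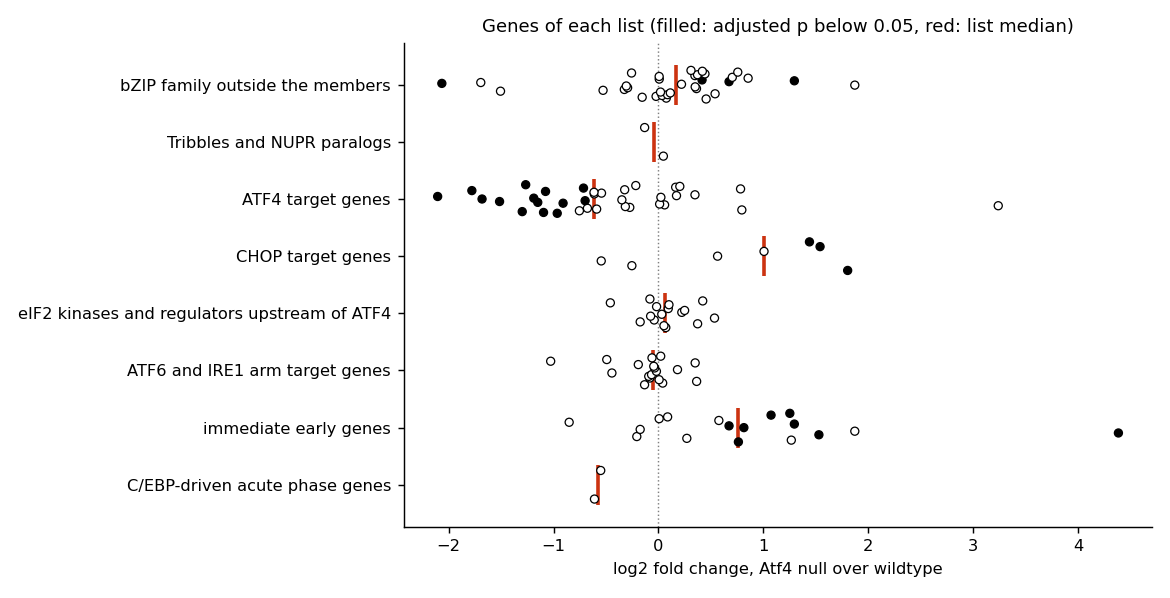
Log2 fold change of *Atf4* null over wildtype (horizontal axis) for the tested genes of each list; filled points have an edgeR adjusted p below 0.05 and the red line is the list's median. The median of the ATF4 targets lies below 0 (−0.61), and those of the CHOP targets (1.01) and immediate early genes (0.76) lie above it. The point farthest to the right is *Egr3*, with at most 3 counts in any wildtype library.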

How the data were processed

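RNA from single pairs of E16.5 lenses of 4 *Atf4* null and 5 wildtype embryos was sequenced. Trimming by the authors used Trim Galore. They then discarded ribosomal reads, mapped the remainder to GRCm39 with HISAT2 and counted it per Ensembl gene with HTSeq. The strand setting of the counting is not given in the sources used here, so reads of antisense neighbours may not be separated. As deposited, the values are raw counts. HTSeq's 5 summary entries, 44.6% to 47.7% of the reads of a library, were left out. Reads are not known to be unique molecules, so counting limits cover counting error only. Symbols, positions and lengths came from GENCODE vM39 (GRCm39), which named 54749 of 55416 identifiers.

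edgeR 4.0.16 in R 4.3.3 was used on all 9 libraries with filterByExpr, TMM factors and the quasi-likelihood test, with no covariate. The Benjamini-Hochberg adjustment covered 14903 genes and the threshold was 0.05. CPM are scaled by TMM factors. Exact permutation tests used mean log2 CPM with a prior count of 2. Alternatives were DESeq2 1.42.0, edgeR's exactTest, library size alone, no filter, at least 10 counts in every library, the replicate number as a block and each library left out in turn. The FPKM, sums and shares with summed exon length were added after seeing the data. The procedure was tested on simulated data. Promoter windows came from RefSeq and were placed by exact match in GRCm39.

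The genes named were the members, their neighbours within 1000 bases, up to 5 called genes per direction from each list, the TRIB and NUPR paralogs, and the lens markers. Outside this rule, and with their values seen, *Ier2*, *Btg2*, *Jun* as an immediate early gene, *Hspa5*, *Ppp1r15a*, *Gdf15*, *Ero1a*, *Bcl2l11*, *Saa3*, *Il6* and *Cxcl1* were also named. The members and lists were chosen with earlier results of these data known. The title of each wildtype sample names another library than its count file, so wildtype replicate numbers are uncertain within the genotype.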

Additional observations from a re-analysis of the deposited data

Results flagged for a closer look

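In 38 groups of values (20 of them the members' CPM by genotype), 8 held a sample far from the others of its genotype by Dixon's criterion at 95% confidence, which chance meets in about 1 of 20 groups. *Trib3* was at 4.95 CPM in *Atf4* null replicate 4 and between 0.329 and 1.08 CPM in the other 3 *Atf4* null libraries. The same library had the lowest summed lens epithelium markers of its genotype, 433.3 CPM against 592.3 to 611.2 CPM. *Atf4* null replicate 3 had the highest summed macrophage markers of its genotype, 141.5 CPM against 113.3 to 116.9 CPM. Wildtype replicate 5 differed from the other wildtype libraries in 5 sums: lens epithelium markers 822.7 CPM against 1066 to 1114, lens fiber markers 50703 CPM against 86403 to 92350, skeletal muscle markers 9319 CPM against 15.92 to 35.69, mesenchyme markers 14223 CPM against 40.83 to 92.27 and pigment cell markers 143.2 CPM against 20.16 to 42.12. Without wildtype replicate 5, 4 members were called, as with it.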

How the results depend on the processing

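*Atf4*, *Cebpg*, *Ddit3* and *Nupr1* kept their direction and an adjusted p below 0.05 in every alternative in which they were tested: 14 for *Atf4*, which was not tested with at least 10 counts in every library, and 15 for each of the others. Their log2 fold changes ran from −5.02 to −4.20, from 0.80 to 1.04, from 2.96 to 3.61 and from −2.09 to −1.80. The number of members called was 4 with any single library left out, and 5 with DESeq2 and with edgeR's exactTest, which added *Atf3*. That gene was tested only through the *Atf4* null libraries, where it was high, so its calls are not taken as support for a rise. Over all genes, 880 were called, 1397 with DESeq2 and 527 to 1207 with single libraries left out, with 527 without *Atf4* null replicate 2, 562 without *Atf4* null replicate 3 or wildtype replicate 3 and 570 without wildtype replicate 2. With library size alone in place of TMM factors, the median of all genes moved from 0.00072 to 0.125 and 790 genes were called higher and 439 lower, in place of 333 and 547. Of the other bZIP genes, 4 were called, 7 with DESeq2, 7 with library size alone and 1 to 7 with single libraries left out. ATF4 targets called ran from 9 to 17 and immediate early genes from 2 to 9 with single libraries left out. The cause of these shifts was not tested. Replicate numbers did not pair the samples: the correlations of same-numbered deviations were −0.127, −0.0185, −0.0211 and 0.00523. With the replicate block, which uses the 4 shared numbers, 852 genes, 4 members and 5 immediate early genes were called. *Trib3*, *Cebpa*, *Cebpb*, *Cebpd* and *Atf3* each had at most 87 counts per library, and the part of depth in their results was not tested.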
